A study of Mus musculus with 4 samples.

Results

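Mouse chromosome 7 carried 626 of the 9428 peaks in a list of regions bound by Flag-tagged Sp5 in differentiating embryonic stem cells (6.64%), and those 626 peaks are described here. They are all peaks listed on that chromosome, with no further selection. The chromosome was chosen by the share of its peaks that have another peak within 10 kb, which was the highest of all chromosomes. Its spacing values are therefore descriptions, and no test of them is made. The data were chromatin immunoprecipitation followed by sequencing (ChIP-seq) of A2Lox.cre embryonic stem cells, a line in which a chosen cDNA can be switched on with doxycycline. Cells grew as embryoid bodies, free-floating aggregates that begin to differentiate, received doxycycline on day 2 for 24 h and were fixed on day 3. There were 2 libraries precipitated with the M2 antibody against the Flag tag and 2 input libraries without antibody. Titles of the input libraries read Flag ESC (embryonic stem cells) and do not name Sp5. All 4 carry the doxycycline treatment in their labels, and no Flag precipitation without Flag-Sp5 was among them, so signal of the antibody alone cannot be told apart from binding. Embryoid bodies were grown from stem cells kept on mouse embryonic fibroblasts, which were stripped away beforehand.

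Sp5 belongs to the SP/KLF group of zinc-finger proteins, transcription factors that recognise GC-rich DNA such as the GC boxes of many promoters. Its gene is switched on by Wnt/β-catenin signalling and is active in the primitive streak, the stage of gastrulation that embryoid bodies approach in the first days of differentiation. A transcription factor's bound sites usually gather where genes and their regulatory elements gather, and mouse chromosomes differ much in this. Chromosome 7 is known for large arrays of olfactory and vomeronasal receptor genes, for the kallikrein gene cluster, and for imprinted domains such as those of H19/Igf2 and of Snrpn. Mouse chromosomes have their centromere at one tip, and coordinates count from that end, called proximal below.

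The list gave 1 set of intervals for the whole series, with chromosome, start and end and nothing else. Depth is therefore unknown, no value has a replicate error, and intervals below are 95% intervals that cover counting error of peaks only (Wilson for shares, exact Poisson for densities, binomial order statistics for medians). Close peaks enter a share together, so those intervals are too narrow. Binding below the unknown calling threshold would leave a stretch without listed peaks, and the share of chromosome 7 to which reads can be mapped was not analysed here. Coordinates are on mm9, 1-based, and no mm9 sequence or annotation was used, so no sequence is printed and no peak is assigned to a gene.

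Peaks ran from 3163440 to 152486769, a span of 149.3 Mb, at 4.19 peaks per Mb (interval 3.87 to 4.53). That was an ordinary density, rank 6 of the 19 autosomes, whose values went from 2.79 per Mb on chromosome 3 to 5.76 on chromosome 11. The peaks together covered 140.8 kb. None overlapped another, and the smallest gap between the edges of neighbours was 50 bp.

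In 1 Mb bins, the peaks of chromosome 7 were unevenly spread, with many empty bins and a few crowded ones. The 150 bins from the first to the last peak held 4.17 ± 4.88 peaks (SD over bins), with a median of 2. No peak fell in 38 of them (25.3%, interval 19.05 to 32.8%), and 16 bins held 10 or more. The remaining 96 bins, with 1 to 9 peaks each, held 375 peaks. Those 16 crowded bins contained 251 peaks, 40.1% of all on the chromosome. Starting from the fullest bin, 24 bins (16%) were enough to hold 50% of the peaks, the smallest such share among the autosomes, where the next were 16.7% on chromosome 5 and 17.0% on chromosome 4. The variance of the bin counts was 5.71 times their mean, second to 6.13 times on chromosome 5, and the median over the other 18 autosomes was 3.38.

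The fullest bin, from 29000001 to 30000000, held 23 peaks, and the bins on each side of it held 21 and 18. This run of 3 bins, from 28000001 to 31000000, carried 62 peaks, 9.90% of the chromosome's peaks in 2.00% of its bins. The next bins in order were 20000001 to 21000000 with 20 peaks, 52000001 to 53000000 with 19, and 25000001 to 26000000 with 18, which ties with the last bin of that run. Of these 6 bins, 5 lay between 20 and 31 Mb. The 16 bins from 16000001 to 32000000 held 168 peaks (26.8%), and yet 5 of these 16 were empty and 9 were crowded. The vacant bins were 1 bin from 18000001 to 19000000 and a run of 4 from 21000001 to 25000000, each with crowded bins on both sides. The single vacant bin lies in a peak-free stretch of 1.45 Mb, too short to hold an empty bin for every bin start.

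**Figure D1:**
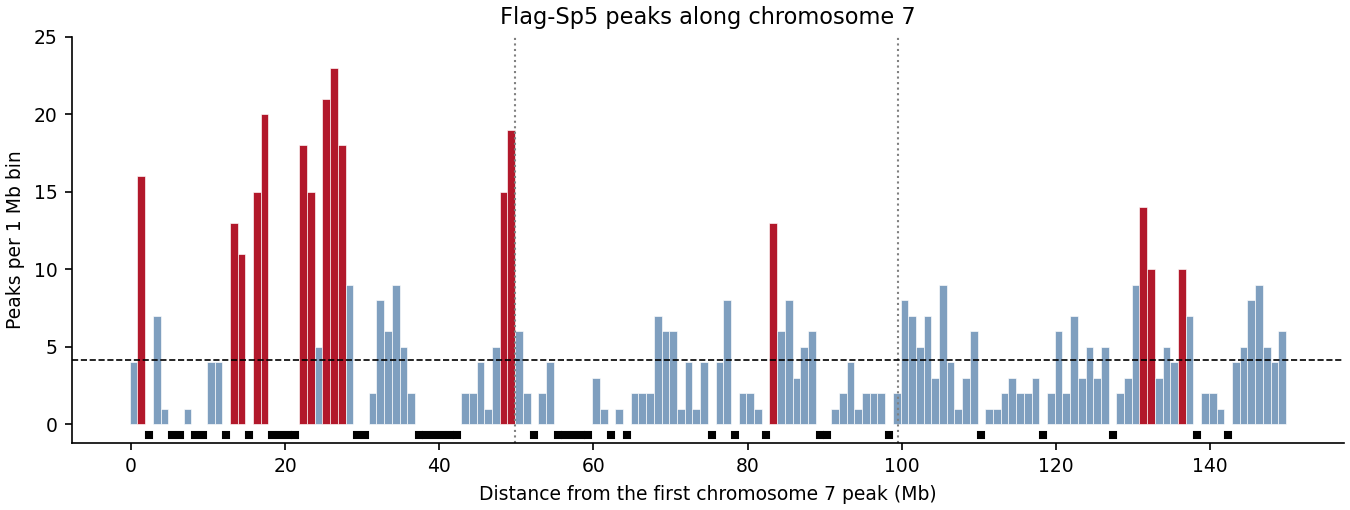
Peaks per 1 Mb bin along chromosome 7, against distance from its first peak in Mb. Red bars are bins of 10 or more peaks, black squares mark the 38 empty bins, the dashed line is the mean of 4.17, and dotted lines divide the span into 3 equal parts; 12 of the 16 red bars lie in the proximal part.

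The empty bins formed 22 runs, of which 3 were 3 bins or longer, and the longest was 6 bins. Measured from edge to edge, 29 peak-free stretches exceeded 1 Mb and together took up 61.0 Mb, or 40.9% of the span. That was the highest share among the autosomes, just above 39.1% on chromosome 1 and 38.4% on chromosome 14. Chromosomes 1 and 14 have fewer peaks per Mb (2.89 and 3.64), and the lowest share was 16.8% on chromosome 11.

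Stretches over 2 Mb numbered 10 and covered 34.6 Mb (23.2% of the span), against 22.2% on chromosome 1, the next highest, and a median of 8.99% over the other autosomes. Outside them the density of chromosome 7 was 5.46 peaks per Mb, after chromosomes 5 (6.05) and 11 (5.91). In the proximal part, 5 such stretches ran from 7073794 to 10910929 (3.84 Mb), from 10911124 to 13007720 (2.10 Mb), from 20472588 to 25084938 (4.61 Mb), from 31838246 to 34621790 (2.78 Mb) and from 39310767 to 46432572 (7.12 Mb). The first and second of these are parted by a single peak of 194 bp at 10910930 to 10911123. Another 4 followed in the middle, from 54417209 to 56737577 (2.32 Mb), from 57831013 to 63097423 (5.27 Mb), from 91949288 to 94046888 (2.10 Mb) and from 100752912 to 102836763 (2.08 Mb). The last ran from 129435443 to 131810726 (2.38 Mb).

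Of these 10 stretches, 2 had 10 or more peaks in the 1 Mb on at least one side. The 4.61 Mb stretch had 31 peaks in the 1 Mb before it and 20 in the 1 Mb after it. The 2.78 Mb stretch had 11 before and 9 after. The other 8 had at most 9 on either side. The longest stretch, of 7.12 Mb, had 6 before and 3 after, and the one of 5.27 Mb had 5 and 3. Taking the 1 Mb on both sides of all 29 stretches over 1 Mb gives 58 sides, of which 8 (13.8%) held 10 or more peaks. On the other 18 autosomes it was 38 of 918 sides (4.14%), and chromosome 17 had a higher share than chromosome 7, with 8 of 38 (21.1%). Over whole chromosomes, bins of 10 or more peaks were 16 of 150 (10.7%) on chromosome 7 and 14 of 92 (15.2%) on chromosome 17. The median over the other 18 autosomes was 6.82%. On chromosome 7 the share of sides was thus near that of bins, though sides start at a peak and bins do not. A stretch with 10 or more peaks on both sides occurred at 2 places on chromosome 7, at the 4.61 Mb stretch and at one of 1.45 Mb from 17755537 to 19200902 with 18 and 18 peaks. The other 18 autosomes had 2 such stretches in all. The 1 Mb after the 1.45 Mb stretch overlaps the 1 Mb before the 4.61 Mb stretch, so these 2 places share peaks. Sides of neighbouring stretches were not kept apart on any autosome, so the counts of sides can include the same crowded group repeatedly. The highest count on a side was 31 on chromosome 7 and 32 on chromosome 10.

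The same contrast counted in bins depended on where bins start. With bins counted from position 0, 7 of the 16 crowded bins (43.75%) touched an empty bin, against 7 of 170 (4.12%) on the other autosomes. Of all 112 chromosome 7 bins with a peak, 42 (37.5%) touched an empty bin, so the crowded bins were near that share. With the bins moved by 500 kb, 1 of 13 crowded bins did so, against 9 of 171 (5.26%). The share of empty bins was then 20% (30 of 150), below 20.6% on chromosome 1. The counts beside stretches, given above, use no bins.

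**Figure D2:**
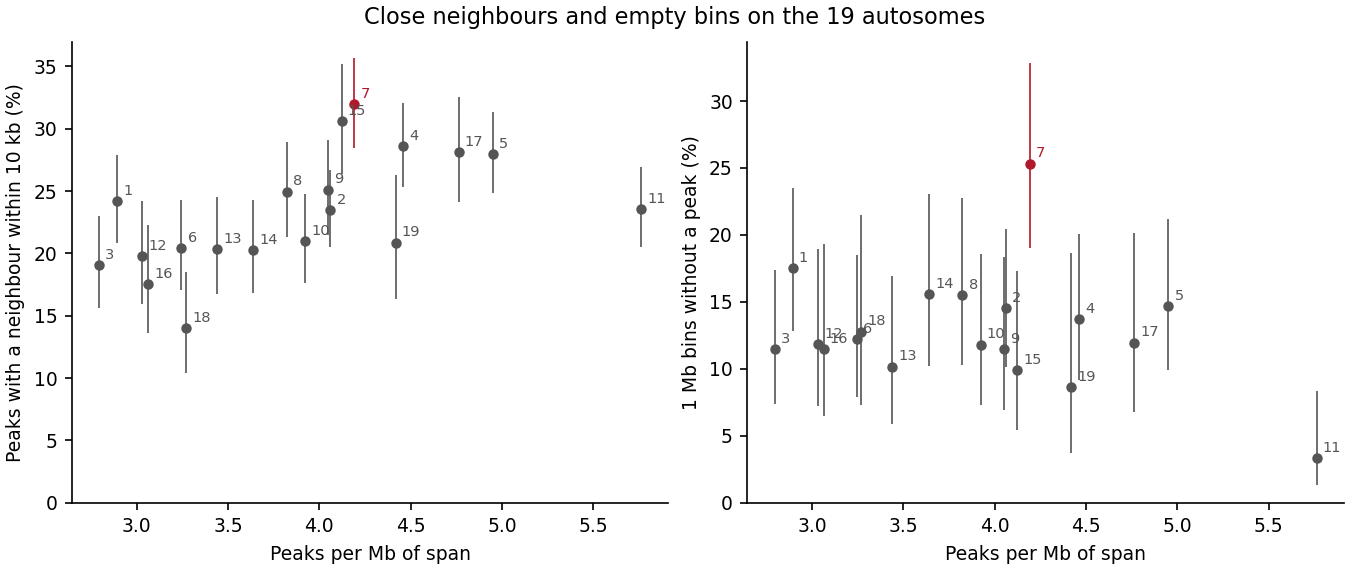
Share of peaks with another midpoint within 10 kb (left) and share of empty 1 Mb bins (right) against peaks per Mb of span; each point is an autosome, labelled by number, with its 95% Wilson interval. Chromosome 7, in red, is level with chromosome 15 on the left (31.9 and 30.6%) and stands highest on the right (25.3%).

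At short range, 200 of the 626 peaks (31.9%, interval 28.4 to 35.7%) had another peak midpoint within 10 kb. Chromosome 15 was nearly level with 126 of 412 peaks (30.6%, interval 26.3 to 35.2%), and chromosome 4 followed with 28.6%. The order of the first few autosomes in this measure is therefore within their counting error. It also changed with distance. Within 1 kb chromosome 7 had 58 peaks (9.27%) and rank 4, behind chromosome 15 (12.1%). Within 50 kb it was first again with 381 peaks (60.9%), with chromosome 17 at 60.1% and chromosome 5 at 60.0%. Within 100 kb it had rank 4 with 72.4%, and chromosome 17 led with 77.6%.

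The 3 autosomes nearest to chromosome 7 in density were 15, 2 and 9, with 4.12, 4.06 and 4.05 peaks per Mb. Their shares within 10 kb were 30.6, 23.4 and 25.1%. Their shares of empty bins were 9.90, 14.5 and 11.5%, against the 25.3% of chromosome 7, and 4.74, 14.1 and 8.43% of their spans lay in stretches over 2 Mb, against its 23.2%. Chromosome 15 was thus close to chromosome 7 in its near neighbours and far from it in its vacant stretches.

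Spacing between neighbouring midpoints had a median of 79.6 kb and a mean of 238.9 kb on chromosome 7. The median was the second shortest, after 78.7 kb on chromosome 5, whose density is higher. The ratio of median to mean, 0.333, was the lowest among the autosomes, where the others ran from 0.386 to 0.534. Of the 625 spacings, 29.1% were under 0.1 of the chromosome's own mean, the highest share (next was chromosome 17 with 25.9%), and 4.00% exceeded 5 means, second to 4.14% on chromosome 15. The coefficient of variation of the spacings, their SD over their mean, was 2.27, against 1.91 on chromosome 5 and 1.75 on chromosome 17. Without the longest spacing of each chromosome it was 2.05, and chromosome 5 had 1.85.

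**Figure D3:**
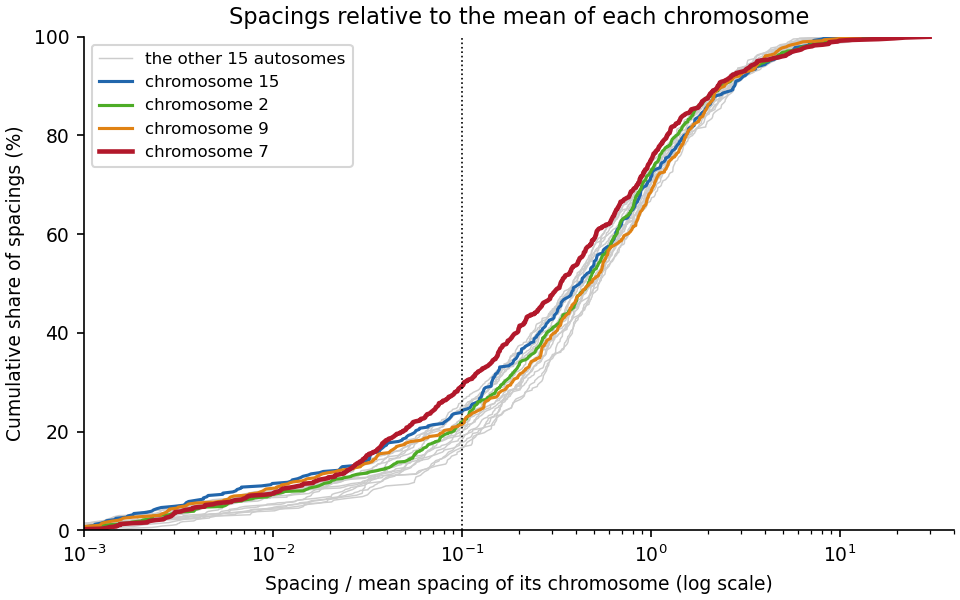
Cumulative share of spacings between neighbouring peaks, each divided by the mean spacing of its chromosome (log axis); chromosome 7 in red, the 3 autosomes nearest in density in colour, the other 15 in grey. At 0.1 of the mean (dotted line) chromosome 7 has reached 29.1%, above all others, while at the shortest spacings chromosome 15 is above it.

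The excess of short spacings on chromosome 7 sat between 5 and 50 kb more than at the closest range. Spacings of 5 to 10 kb made up 7.84% (49; interval 5.98 to 10.2%), against 4.00% on the other autosomes together. Those of 10 to 50 kb made up 23.0% (144), against 19.3%. Spacings up to 1 kb were 4.64% (29; interval 3.25 to 6.58%), against 3.92%, and those of 1 to 5 kb 6.08% (38), against 5.15%. Middle distances were rarer, with 33.8% (211) between 100 and 500 kb, against 38.5%, and 6.72% (42) between 500 kb and 1 Mb, against 9.50%. Those of 1 to 2 Mb were also rarer, with 3.04% (19), against 4.33%. Over 2 Mb there were 10 (1.60%; interval 0.871 to 2.92%), against 0.998%.

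Linking midpoints up to 10 kb apart grouped the peaks into 510 units. Single peaks made up 426 of these, 59 were pairs, 20 were groups of 3 and 4 were groups of 4. The longest chain had 6 peaks. Groups of 3 or more held 82 peaks (13.1%, interval 10.7 to 15.97%), against 12.9% on chromosome 9, 11.7% on chromosome 15 and a median of 5.93% over the other autosomes. Chromosome 7 had the most groups of 3, 20 against 15 on chromosome 11, but its longest chain was shorter than those of chromosomes 9 (9 peaks) and 8 (8 peaks). With links up to 10 kb, clustering on chromosome 7 thus consisted of many small groups. Longer links gave it the most chains of 5 or more peaks among the autosomes. There were 5 with links up to 20 kb (chromosome 11 had 4) and 23 with links up to 50 kb (chromosome 5 had 20).

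The chain of 6 peaks ran over 21.9 kb from 28258241 to 28280158. Its members began at 28258241, 28259453, 28266615, 28271775, 28275901 and 28279841 and were 342, 299, 271, 209, 193 and 318 bp wide. The spacings between them were 1.19, 7.15, 5.13, 4.12 and 4.00 kb. Apart from the first, these steps were between 4.00 and 7.15 kb, below the 10 kb limit that defines a chain.

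The groups of 4, listed after their values were seen, all fell in bins of 10 or more peaks between 17 and 30 Mb, as did the chain of 6. Bins of that kind held 40.1% of the chromosome's peaks. The peaks of a group also count towards its bin being crowded, so the overlap is partly built in. One group of 4 ran from 17345772 to 17366635 with a median width of 187.5 bp. A pair of them, from 20321045 to 20335154 (median width 344 bp) and from 20401044 to 20412368 (191 bp), lay within the 100 kb window that held most peaks of the chromosome, 11. The tightest, from 29156674 to 29164691, packed 4 peaks into 8.02 kb. Its peaks were 163, 476, 443 and 385 bp wide. Of the 22 peaks in these 5 groups, 15 were wider than the median of the whole list, 195 bp. Among all 626 chromosome 7 peaks, 332 were wider than that. The median width of the 22 was 272.5 bp (interval 193 to 351 bp).

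Windows of 100 kb with 6 or more peaks numbered 7 on chromosome 7. The window of 11 was followed by 2 of 8 peaks, from 28232750 to 28293369 and from 134851549 to 134920679. Next came 2 of 7 peaks, from 25630905 to 25713745 and from 29097090 to 29164691, and 2 of 6 peaks, from 30066902 to 30105248 and from 51614499 to 51689068. Their makeup differed. The window of 7 peaks that starts at 25630905 had narrow peaks, from 141 to 231 bp with a median of 173 bp. That of 7 peaks from 29097090 had a median of 323 bp and a widest peak of 476 bp. The window that starts at 134851549 was the only one of the 7 in the distal part, and held 3 peaks with steps of 1.15 and 0.694 kb and a pair 314.5 bp apart.

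**Figure D4:**
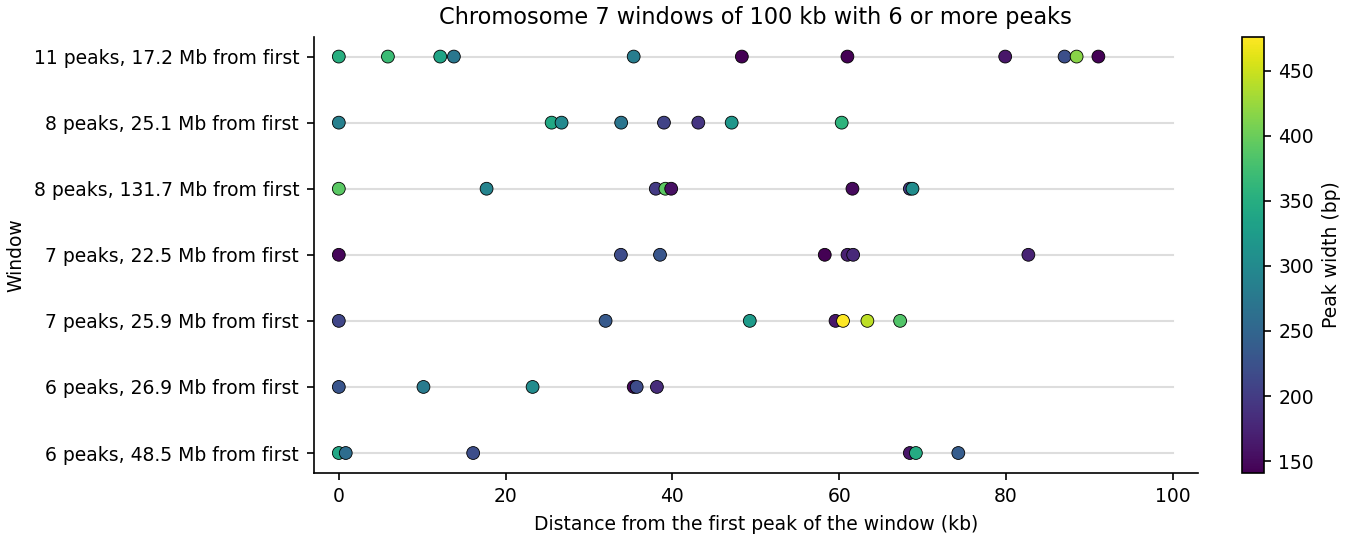
The 7 windows of 100 kb with 6 or more peaks on chromosome 7; each point is a peak at its distance from the first peak of the window in kb, coloured by width in bp. Peaks are spread over the windows in small groups, and the widest, 476 bp (yellow), is in the window of 7 peaks whose median width is 323 bp.

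The 5 closest pairs were mostly outside these windows. Midpoints were 200 bp apart in the pair from 102836764 to 102837113, whose edges were 50 bp apart, with widths of 159 and 141 bp. The next pairs ran from 6681143 to 6681633 (294 bp between midpoints), from 134920113 to 134920679 (314.5 bp), from 51052428 to 51052961 (326.5 bp) and from 26180697 to 26181276 (356 bp). Only the pair at 134920113 belonged to one of the 7 windows. Whether a peak caller divided single bound regions in such pairs was not tested.

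Split into 3 equal parts of 49.8 Mb, the chromosome was uneven, and the proximal part had the strongest contrast. It held 284 peaks (5.71 per Mb, interval 5.06 to 6.41), the middle part 127 (2.55 per Mb, interval 2.13 to 3.04) and the distal part 215 (4.32 per Mb, interval 3.76 to 4.94). The proximal part had both most crowded bins, 12 of the 16, and most empty ones, 19 of its 50 bins (38%). The middle part had 14 of 50 bins empty (28%) and 1 crowded bin, and the distal part 5 of 49 empty (10.2%) and 3 crowded. Close neighbours within 10 kb were found for 37.0% of proximal peaks (105; interval 31.6 to 42.7%), 22.8% of middle peaks (29; interval 16.4 to 30.9%) and 30.7% of distal peaks (66; interval 24.9 to 37.2%).

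The proximal and middle parts had nearly the same share of length in stretches over 1 Mb, 49.2 and 50.04%, and differed in what lay between. Outside those stretches the proximal part held 11.2 peaks per Mb and the middle part 5.11, with 5.64 in the distal part. Divided the same way, the 19 autosomes gave 57 parts. The proximal part of chromosome 7 was first of the 57 in the share of empty bins (next 28% in its own middle part, then 24.6% in the middle of chromosome 1). It was also first in variance over mean of the bin counts (8.75, against 6.31 in the middle of chromosome 10) and in density outside stretches over 1 Mb (9.86 at the distal end of chromosome 5 was next). It was second in close neighbours, after 40% in the distal part of chromosome 15. The middle and distal parts had variances of 3.00 and 2.38 times the mean, where the median of the 54 parts of other autosomes was 2.69.

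The proximal part was then left out of chromosome 7, with the other autosomes kept whole. Its share of peaks with a neighbour within 10 kb was 27.8% (rank 5), its variance over mean 2.78 (rank 14), its median spacing 150.3 kb (rank 14 from the shortest) and its share of span in stretches over 1 Mb 36.7% (rank 6). The part left out was chosen after its values were seen, and leaving out the part with the strongest contrast lowers such values on any chromosome, so these ranks are a description only.

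**Figure D5:**
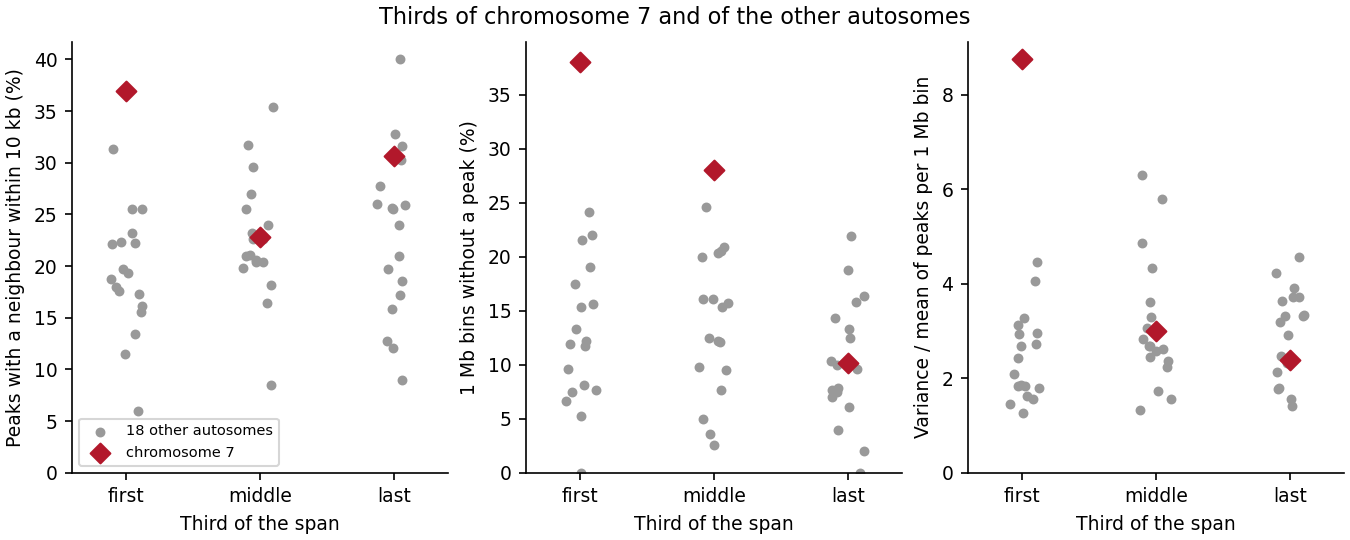
Each autosome divided into 3 equal parts: share of peaks with a neighbour within 10 kb, share of empty 1 Mb bins, and variance over mean of bin counts; red diamonds are chromosome 7 and grey points the 18 other autosomes. The proximal part of chromosome 7 stands apart in the middle and right panels (38% and 8.75), and its distal part lies among the others.

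Widths of the chromosome 7 peaks had a median of 202 bp (interval 193 to 207 bp), with quartiles at 161 and 260 bp and averaged 224.9 ± 88.1 bp (SD, 626 peaks). This was the highest median among the autosomes, shared with chromosome 6, and the lowest autosomal median was 185 bp on chromosome 3. Peaks over 300 bp made up 15.97% (100; interval 13.3 to 19.1%), after chromosomes 17 (17.97%) and 4 (16.2%). The smallest width in the list, 141 bp, was shared by 44 peaks (7.03%, interval 5.28 to 9.30%), near the median of the other autosomes, 7.02%.

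Width varied little with crowding on the Mb scale. The median was 203.5 bp in bins of 1 to 4 peaks, 200 bp in bins of 5 to 9 and 201 bp in bins of 10 or more. By part it was 205 bp proximally, 202 bp in the middle and 199 bp distally. At short range there was more difference, with 212 bp for peaks that had a neighbour within 10 kb (interval 202 to 222 bp) and 195 bp for the rest (interval 187 to 205 bp). The other 18 autosomes together had 203 and 193 bp. Groups of 3 or more peaks had 30.5% of peaks over 300 bp (25 of 82; interval 21.6 to 41.1%), against 15.97% of all chromosome 7 peaks. Of the 44 peaks at the smallest width, 14 (31.8%) had a neighbour within 10 kb, the same share as the chromosome as a whole to within counting error.

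None of the 5 widest peaks was in a crowded bin, where 40.1% of the chromosome's peaks lay. The widest, 814 bp from 91754310 to 91755123, was 194.5 kb from its nearest neighbour. After it came peaks from 108080663 to 108081366 (704 bp), from 99291690 to 99292295 (606 bp), from 77933743 to 77934337 (595 bp) and from 150202137 to 150202730 (594 bp). Their bins held 6, 9, 2, 4 and 5 peaks. All 5 lay in the middle or distal part of the chromosome. Peaks over 300 bp were not rarer in crowded bins. They made up 17.1% of peaks there (43 of 251), 14.7% in bins of 5 to 9 peaks and 15.97% in bins of 1 to 4. Nor were they rarer in the proximal part, with 17.3% there, 15.0% in the middle part and 14.9% in the distal part.

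Isolated peaks had a higher median width than the rest of the chromosome. The 21 peaks more than 500 kb from any other had a median width of 279 bp (interval 204 to 309 bp, lowest 152 bp, highest 529 bp), against 202 bp for all chromosome 7 peaks. Peaks that isolated on the other 18 autosomes numbered 368 and had a median of 191 bp, below the 195 bp of all their peaks. The widest of the 21, 529 bp from 66570109 to 66570637, stood 1549 kb from its neighbour. Only 4 of the 21 were in the proximal part, with 9 in the middle and 8 in the distal part. This comparison was noticed after the values were seen and was not tested.

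Names and numbers of genes were taken from the RefSeq table of GRCm38.p6, a later build whose coordinates were not used. Chromosome 7 had the most protein-coding genes among the autosomes in that table, 2030, of which 417 (20.5%) were olfactory (Olfr) or vomeronasal (Vmn1r, Vmn2r) receptor genes, the chemosensors of the nose. Both the number and the share were the highest among the autosomes. It held 126 of the 231 Vmn1r genes, 52 of the 124 Vmn2r genes and 239 of the 1110 Olfr genes (chromosome 2 had 287). In gene order, 9 uninterrupted rows of 10 or more Olfr genes held 201 of them, the longest with 42 genes between Ovch2 and Nlrp10, and 6 rows of 10 or more vomeronasal genes held 79.

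Other families concentrated on chromosome 7 were the kallikreins (Klk, secreted serine proteases; 26 of 26), the Ceacam and Psg genes (cell adhesion molecules and pregnancy-specific glycoproteins; 28 of 28), the Mrgpr receptors of sensory neurons (19 of 20), and 93 of the 397 Zfp zinc-finger genes. Imprinted genes of this chromosome, expressed from 1 parental copy, include H19, Igf2, Cdkn1c, Snrpn and Peg3; the list of 17 was made from chromosome 7 genes, so its count says nothing of their concentration. Of the 26 Klf and Sp genes, the family of Sp5, it held 1, Klf13.

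Relative to its genes, chromosome 7 had the fewest Flag-Sp5 peaks. It had 30.8 peaks per 100 protein-coding genes, the lowest of the 19 autosomes, where chromosome 19 had 36.0 and chromosome 5 had 58.1. With the olfactory and vomeronasal receptor genes left out it had 38.8, and chromosome 19, with only 254 peaks, was nearly level at 39.6. No interval was computed for these ratios, so the order of chromosomes 7 and 19 is not settled. Where these gene rows lie relative to the peak-free stretches was not tested, because the peaks and the gene table are on different builds.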

How the data were processed

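The authors deposited 1 peak list for the series, with 3 columns (chromosome, 0-based start, end), no header and no signal value. Bowtie, Picard, MACS2, HOMER and build mm9 are named in the submitters' processing notes. Their versions, the threshold, filters and pooling of libraries were not given in the sources used here. Of the chromosome 7 peaks, 41 ended beyond the last chromosome 7 gene of the GRCm38.p6 table, so their coordinates cannot be of that build. Measures were computed with Python 3.11.15, numpy 2.4.6, pandas 2.3.3 and scipy 1.17.1. Counts of chains, of peaks with a close neighbour and of long stretches, and the longest stretch, were tested on simulated lists. Other measures were not. Bins were 1 Mb from position 0 by midpoint; spacing was between midpoints; stretches were edge to edge; a crowded bin had 10 or more peaks; chains linked midpoints up to 10 kb apart. Measures ranked among or set against other autosomes were computed alike on all 19 autosomes. The exceptions were leaving out the fullest bin and leaving out the proximal part, which changed chromosome 7 alone. The 100 kb windows, closest pairs, widest peaks and widths by bin, part or group were computed on chromosome 7 only. Named were the 5 fullest bins with ties, stretches over 2 Mb, chains of 5 or more, the 5 widest peaks and the 5 closest pairs. The chromosome, the measures and the lists were chosen with earlier results of these data known. Division into 3 parts, the 100 kb windows, the sides of stretches and the isolated peaks were added after seeing the data. No test was made.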

Additional observations from a re-analysis of the deposited data

How the results depend on the processing

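The median width was between 200.5 and 207 bp under all 5 alternatives, within its interval. Merging peaks less than 500 bp apart left 28.2% of peaks with a neighbour within 10 kb and a variance over mean of 5.44; merging below 1 kb, chosen after seeing the data, left 24.8% and 5.19. Peaks wider than the list median gave 24.4%, a variance over mean of 3.56, a median spacing of 163.8 kb and 57.4% of the span in stretches over 1 Mb, where chromosome 7 ranked 11th. Variance over mean and share of span were 5.38 and 42.3% without peaks of the smallest width. They were 5.34 and 41.2% without the fullest bin, left out of this chromosome alone. Bins moved by 500 kb gave a variance over mean of 6.34, bins of 500 kb 4.06 and bins of 2 Mb 7.72. Close neighbours made up 19.6% within 5 kb, with rank 5, and 60.9% within 50 kb. Stretches over 500 kb took 59.8% of the span (rank 7), over 2 Mb 23.2% and over 3 Mb 13.95% (rank 2). Chains of 5 or more numbered 0 with links up to 5 kb, 5 up to 20 kb and 23 up to 50 kb. Without the proximal part of chromosome 7, left out of this chromosome alone and chosen after seeing the data, values were 27.8% with close neighbours, 2.78 for the variance over mean, 36.7% of the span, a median spacing of 150.3 kb and 0 chains. The share within 10 kb was the highest of the autosomes under 6 of 9 alternatives. The chromosome was chosen by this share, so that count is a description only. No paired analysis was possible because libraries are not separated in the list, and for that reason no replicate could be left out. With depth and threshold unknown, a missing peak shows little.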
